A study of Mus musculus with 58 samples.

Results

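The genes described here are 35 members of the machinery that folds, translocates and quality-controls proteins in the endoplasmic reticulum (ER), followed across organoids grown from mouse small intestine and across populations sorted out of such organoids. They were taken by symbol from the 20095 genes counted in the bulk libraries: 9 lumenal chaperones and co-chaperones, 4 disulfide isomerases, 2 lectin chaperones, 9 subunits of the translocon, the TRAP complex and signal peptidase, 4 components of ER-associated degradation, and 7 stress sensors and transcription factors. The study asked how enteroendocrine cells can be made from Lgr5+ stem cells by manipulating their quiescence, and its bulk libraries were CEL-seq libraries, which count the 3' ends of transcripts.

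Whole organoids from Bl/6 mice were profiled after 6 h and 96 h with 3 libraries per group. ENR organoids carried no inhibitor, Ei organoids an EGFR inhibitor and Mi organoids a Mek inhibitor. ID organoids were treated against Wnt and Notch together, IDE organoids against Wnt, Notch and EGFR, and IDM organoids against Wnt, Notch and Mek. A further set held sorted cells with 2 libraries per group: Lgr5+ cells from Lgr5-GFP and from Lgr5-DTR mice and Dclk1+ cells from Dclk1-GFP mice, each with and without EGFR inhibition, beside 2 libraries of untreated control organoids. The labels name no drug or dose and do not say whether libraries of a group came from separate cultures or animals, so p-values here measure the spread between these libraries, which may be technical.

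Secreted and membrane proteins enter the ER through the Sec61 channel, lose their signal peptide to signal peptidase, and fold with help from chaperones of the Hspa5 (BiP) system, from disulfide isomerases and from the lectins calnexin and calreticulin. Misfolded chains are sent back to the cytosol by the Syvn1-Sel1l complex, and a build-up of them sets off the unfolded protein response through the sensors Ern1 (IRE1-alpha), Atf6 and Eif2ak3 (PERK), which act through Xbp1, cleaved Atf6 and Atf4. In the gut this matters most in cells that secrete in bulk, namely Paneth, goblet and enteroendocrine cells, and the gut epithelium has a second IRE1 enzyme, Ern2 (IRE1-beta), known from goblet cells.

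Many ER chaperone genes share the ER stress response element in their promoters, to which Atf6 and Xbp1 are known to bind, and the sequences are shown because Hspa5, Hsp90b1, Dnajb11 and Calr, which fell after 6 h of EGFR inhibition, carry it or its variant. Canx, Creld2, Dnajc3, Pdia6 and Syvn1 carry it too and were not called in any comparison at 6 h, and Sdf2l1 and Ssr1 fell without it. RefSeq promoters (build GRCm38.p6, from 250 bases before to 50 after the start) were matched for 28 of the 35 members and searched on both strands. The element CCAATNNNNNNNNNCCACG stood in 8 of these 28, or 28.57%, against 39 of all 32851 promoters, or 0.1187%. The element is known from ER chaperone genes such as these, so this share is a description and not a test. Its variant ATTGGNCCACG stood in 2 of 28, Dnajb11 and Herpud1, against 12 of all promoters (0.03653%). The element TGACGTGG stood in none of the 28 and in 0.6758% of all promoters, and TGATGCAA, bound by C/EBP-ATF dimers, in 1 of 28, Herpud1, and in 0.8949% of all promoters. None of these motif matches overlapped another in the windows printed below. Windows around matches of the members that fell after 6 h read as follows, in the direction of transcription, with the fixed letters of the motif in capitals (reversed and complemented where the match lies on the other strand).
Hspa5, chr2:34772019-34772049, plus strand: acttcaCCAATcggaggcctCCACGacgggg
Hsp90b1, chr10:86705632-86705662, minus strand: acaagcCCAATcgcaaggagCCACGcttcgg
Hsp90b1, chr10:86705527-86705557, minus strand: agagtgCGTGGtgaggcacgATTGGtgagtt
Calr, chr8:84847069-84847099, minus strand: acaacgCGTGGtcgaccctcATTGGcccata
Dnajb11, chr16:22857846-22857868, plus strand: gcggcgATTGGcCCACGcctggc
The 250 bases upstream of Hspa5 and of Herpud1 are shown whole, because the former fell and the latter rose in the same Ei libraries at 6 h. Capitals mark the element in Hspa5, and in Herpud1 first the C/EBP-ATF motif on the other strand and then ATTGGNCCACG.
Hspa5, chr2:34771840-34772089, plus strand: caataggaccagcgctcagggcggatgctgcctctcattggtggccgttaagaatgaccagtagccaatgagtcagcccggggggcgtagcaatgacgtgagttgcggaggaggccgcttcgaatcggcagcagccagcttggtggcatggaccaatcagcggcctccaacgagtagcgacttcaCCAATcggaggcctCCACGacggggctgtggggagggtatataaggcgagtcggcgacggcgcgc
Herpud1, chr8:94386179-94386428, plus strand: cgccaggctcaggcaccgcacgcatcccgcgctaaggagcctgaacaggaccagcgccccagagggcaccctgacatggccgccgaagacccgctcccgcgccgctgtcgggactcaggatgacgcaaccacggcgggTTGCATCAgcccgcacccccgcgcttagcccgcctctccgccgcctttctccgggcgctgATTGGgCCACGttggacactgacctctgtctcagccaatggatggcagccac

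The libraries taken after 6 h held 448292 to 2763423 counts, those taken after 96 h held 158135 to 1738425, and the sorted libraries held 668893 to 3599554. Of the later libraries the ENR libraries were the deepest (at least 1425565) and 1 Ei library the shallowest (158135). Levels are given as CPM, the counts of a gene scaled to 1e+06 counts in the genes tested, scaled by TMM, and each gene is compared only with itself. Of the 35 members, 34 had counts enough to be tested at 6 h, 33 at 96 h and 34 in the sorted set. Ern1 had 0 to 4 counts in every library and was never tested, and Pdia4 was not tested at 96 h. ID, IDE and IDM libraries carry another library-set number than ENR, Ei and Mi libraries of the same time, so in any comparison across these sets the treatment and the set cannot be told apart. Summed markers of fibroblasts, endothelium and blood were between 0 and 79.86 CPM in the whole organoids. At 96 h they were 2.134 to 7.501 CPM in ENR and 39.99 to 79.86 CPM in IDM. The only such marker tested at 96 h was called higher than ENR in IDE and in IDM (log2 changes 2.26 and 2.85). These sums were low beside the Paneth, goblet and enterocyte markers given below, but the IDM range overlapped that of tuft markers in ENR (32.34 to 41.26 CPM).

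The members together held under 1% of all counts in every library. After 6 h the share was 0.638% ± 0.0129 (SD, n = 3) in ENR and 0.623% ± 0.0110 in ID, and lower in the 4 groups given an EGFR or Mek inhibitor, from 0.536% ± 0.00962 in Ei to 0.558% ± 0.00327 in Mi. No library of those 4 groups reached the lowest ENR library. After 96 h the order had turned: the share was 0.530% ± 0.0100 in ENR and 0.508% ± 0.0430 in ID, against 0.679% ± 0.0204 in Ei, 0.619% ± 0.0183 in Mi, 0.596% ± 0.0430 in IDE and 0.583% ± 0.0210 in IDM. All Ei, Mi, IDE and IDM libraries lay above the highest ENR library. In the sorted set whole control organoids held the largest share, 0.878% ± 0.0166 (n = 2), and the sorted groups 0.538% to 0.666%. The gene Ptma alone held 12.23% to 22.34% of counts in Lgr5+ libraries. It held 2.548% and 3.001% in control organoids and 1.522% to 3.402% in Dclk1+ libraries. Such a gene lowers the share of all others, and the shares were not recomputed without it. These shares are descriptions without a test, and in bulk organoids fewer cells of a type and less RNA per cell cannot be told apart. The highest group mean was 1.338 times the lowest at 96 h and 1.63 times in the sorted set; without the most abundant member these ratios were 1.513 and 1.86.

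**Figure D1:**
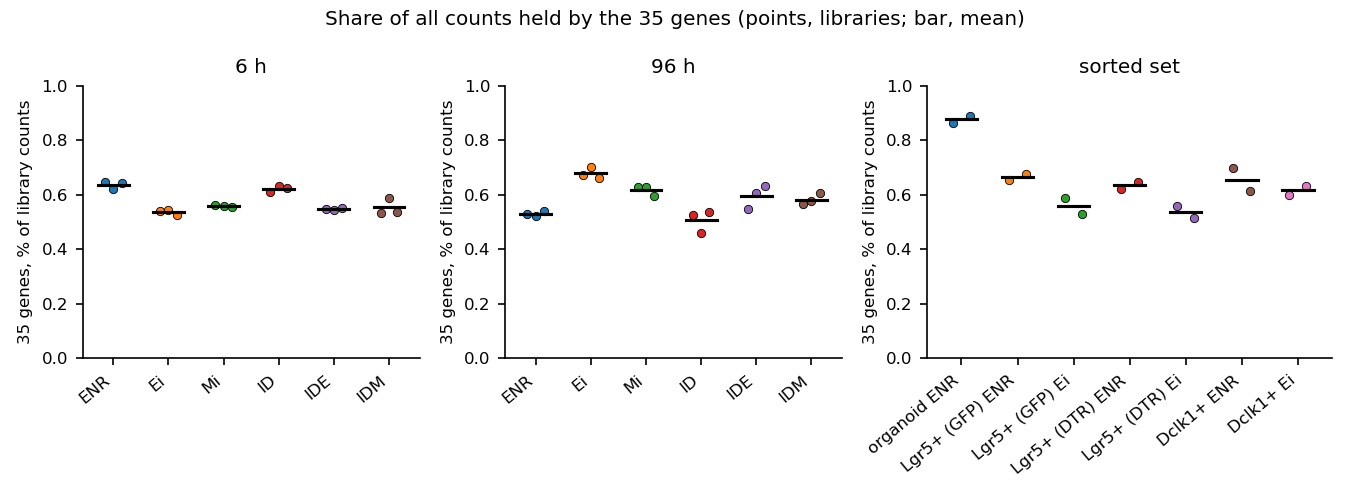
Share of each library's counts held by the 35 genes (y axis, percent) for each treatment after 6 h, after 96 h and in the sorted set; points are libraries and bars are group means. After 6 h the groups with an EGFR or Mek inhibitor lie below ENR and ID, after 96 h they lie above, and in the sorted set the 2 control organoid libraries lie above all sorted cells.

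**Figure D2:**
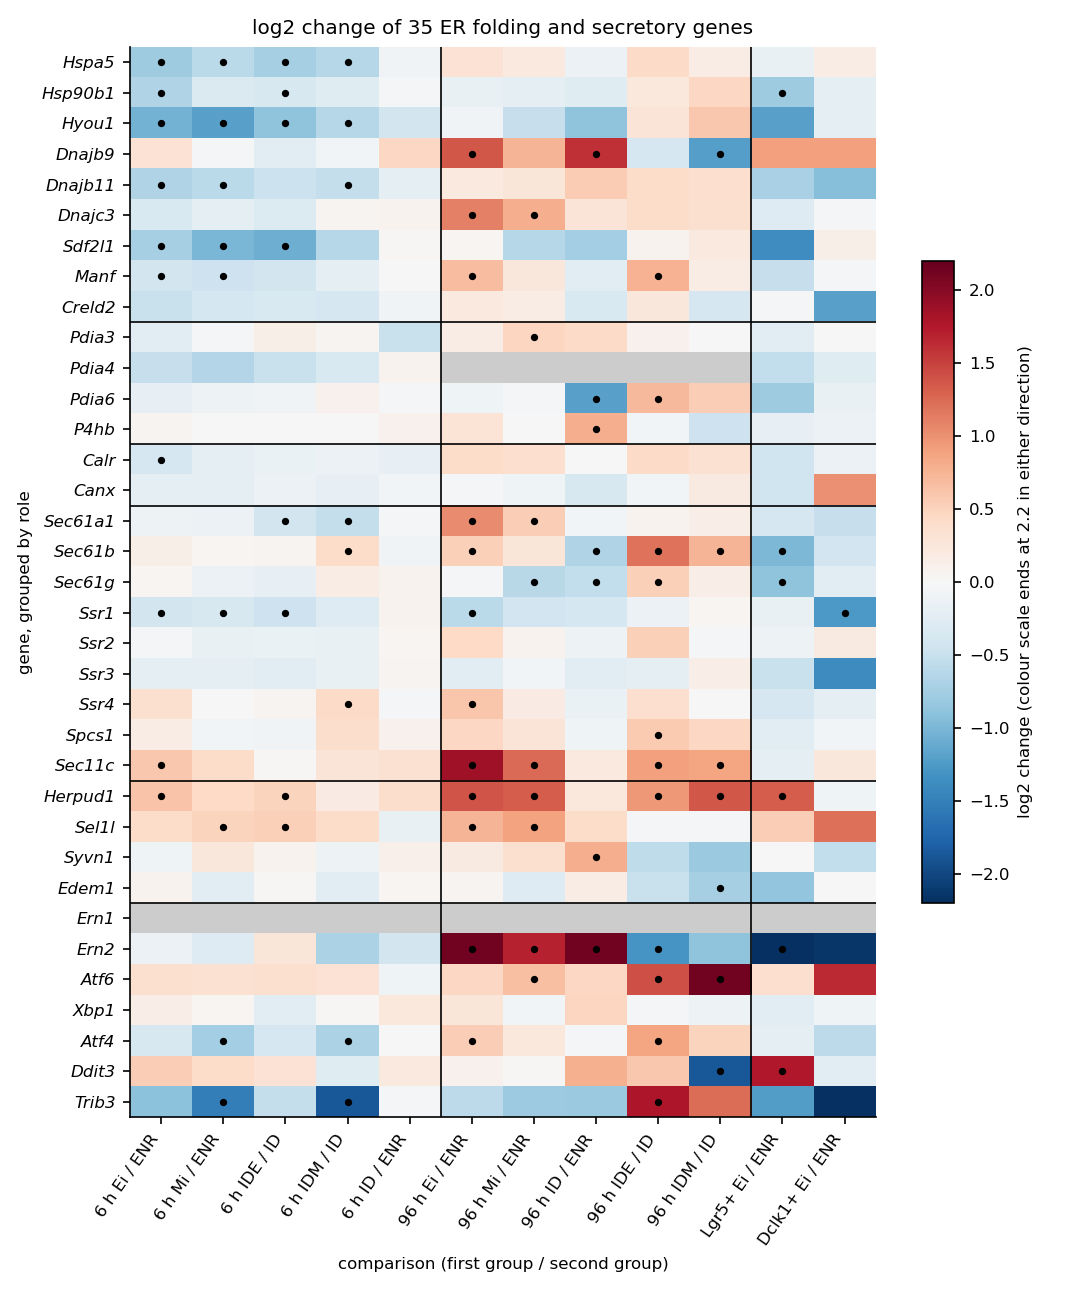
Log2 change of each of the 35 genes (rows, grouped by role) in 12 comparisons (columns, first group over second group), with the colour scale ending at 2.2 in either direction. Dots mark an adjusted p under 0.05 and grey marks genes not tested; blue among the chaperones in the first 4 columns and red for Sec11c, Herpud1, Ern2 and Atf6 at 96 h stand out.

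After 6 h of EGFR inhibition 6 of the 9 lumenal chaperones and co-chaperones fell, as did Calr and Ssr1. Of 34 members tested against ENR, 2 rose and 8 fell by edgeR's quasi-likelihood test at an adjusted p under 0.05, while among all 9380 genes 13.3% rose and 14.9% fell. The median log2 change of the members was -0.15, against 0.03 over all genes. None of the 9 lumenal chaperones and co-chaperones rose, their median was -0.66, and Dnajb9, Dnajc3 and Creld2 were not called. Hspa5, the Hsp70-type chaperone at the centre of ER folding, stood at 768, 728 and 772 CPM in ENR and at 415, 487 and 419 CPM in Ei. The groups lay well apart, and the log2 change was -0.78 (SE 0.13, adjusted p = 1.25e-05). Hyou1, which exchanges the nucleotide of Hspa5, had 93.7, 79.3 and 75.0 CPM in ENR and 43.2, 42.5 and 34.2 CPM in Ei. Every Ei library was below every ENR library, with a log2 change of -1.04 (SE 0.18, adjusted p = 2.36e-05).

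The ER form of Hsp90, Hsp90b1, had 292, 252 and 285 CPM in ENR and 162, 179 and 184 CPM in Ei, a log2 change of -0.66 (SE 0.14, adjusted p = 0.0003). Dnajb11, a J-domain partner of Hspa5, had 57.9, 66.5 and 63.4 CPM in ENR and 40.8, 39.8 and 38.1 CPM in Ei, a log2 change of -0.66 (SE 0.18, adjusted p = 0.00545). Neither gene's groups overlapped. These 4 calls and that of Herpud1 held in each of the 6 fits that leave out 1 library. Sdf2l1, which keeps Hspa5 clients from aggregating, fell by 0.74 on the log2 scale, but the call ended in 5 of the 6 fits. The calls of Manf and of the lectin chaperone Calr (log2 changes -0.40 and -0.37) each ended in 3 fits, and that of the TRAP subunit Ssr1 (-0.41) without ENR replicate 3 (adjusted p = 0.0556) and without Ei replicate 2 (0.0533). None of the 4 disulfide isomerases, which form and shuffle disulfide bonds, passed the test. Thinned to 448292 counts per library, 5 members were called.

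With the Mek inhibitor the chaperones were again among the members that fell at 6 h, with 1 member higher and 8 lower of 34, against 10.2% and 12.9% of all genes. The median of the members was -0.19 and that of all genes 0.01. Ei and Mi are compared with the same ENR libraries, so their lists are not independent. Hspa5 had 481, 518 and 499 CPM in Mi, a log2 change of -0.60 (SE 0.13, adjusted p = 0.000528), and Hyou1 had 34.6, 34.4 and 38.7 CPM, a log2 change of -1.20 (SE 0.18, adjusted p = 3.87e-06). All Mi libraries were below all ENR libraries for both genes. Dnajb11 (-0.59), Sdf2l1 (-1.001), Manf (-0.46) and Ssr1 (-0.35) fell too, each losing its call in 2 to 6 of the 6 fits. With Mi replicate 1, 2 or 3 left out, 5, 4 and 4 members were called.

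Adding either inhibitor on top of Wnt and Notch inhibition also lowered Hspa5 and Hyou1, here in separate libraries whose reference is ID rather than ENR. IDE against ID had 2 members higher and 6 lower of 34, with 9.97% and 12.5% of all genes, and IDM against ID had 2 and 6, with 9.71% and 10.9%. The members' median was -0.16 in both, and that of all genes 0.03. Hspa5 had 631, 823 and 679 CPM in ID, 406, 447 and 441 CPM in IDE and 421, 504 and 459 CPM in IDM. No IDE or IDM library reached the lowest ID library, with log2 changes of -0.73 (SE 0.13, adjusted p = 4.33e-05) and -0.63 (SE 0.13, adjusted p = 0.000338). Hyou1 had 67.1, 55.8 and 66.5 CPM in ID and 38.6, 33.6 and 31.0 CPM in IDE, a log2 change of -0.89 (SE 0.18, adjusted p = 0.000413). In IDM it had 45.7, 35.2 and 40.8 CPM, and its call (-0.63) ended without ID replicate 3 (adjusted p = 0.0665) and without IDM replicate 2 (0.0576). Sec61a1, the pore of the translocon, had 186, 138 and 163 CPM in ID and 111, 102 and 118 CPM in IDM, a log2 change of -0.52 (SE 0.15, adjusted p = 0.00914) that held in all 6 fits.

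These counts were thin in the second pair of comparisons. Without any 1 of the 6 libraries IDE against ID had 4 or 5 members called in place of 8, and IDM against ID had 5 without ID replicate 2 or IDM replicate 1 and 4 without ID replicate 3 or IDM replicate 2. With library totals in place of TMM factors IDM against ID had 0 members higher and 7 lower. With Wnt and Notch inhibition alone no member was called after 6 h. By edgeR's test 0 of 34 members were called in ID against ENR in either direction, where 0.0746% of all genes rose and 0.149% fell, DESeq2 called 0 as well, and 3 members had an unadjusted p under 0.05. The log2 change was -0.08 (SE 0.13) for Hspa5 and -0.41 (SE 0.17, adjusted p = 0.487) for Hyou1.

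**Figure D3:**
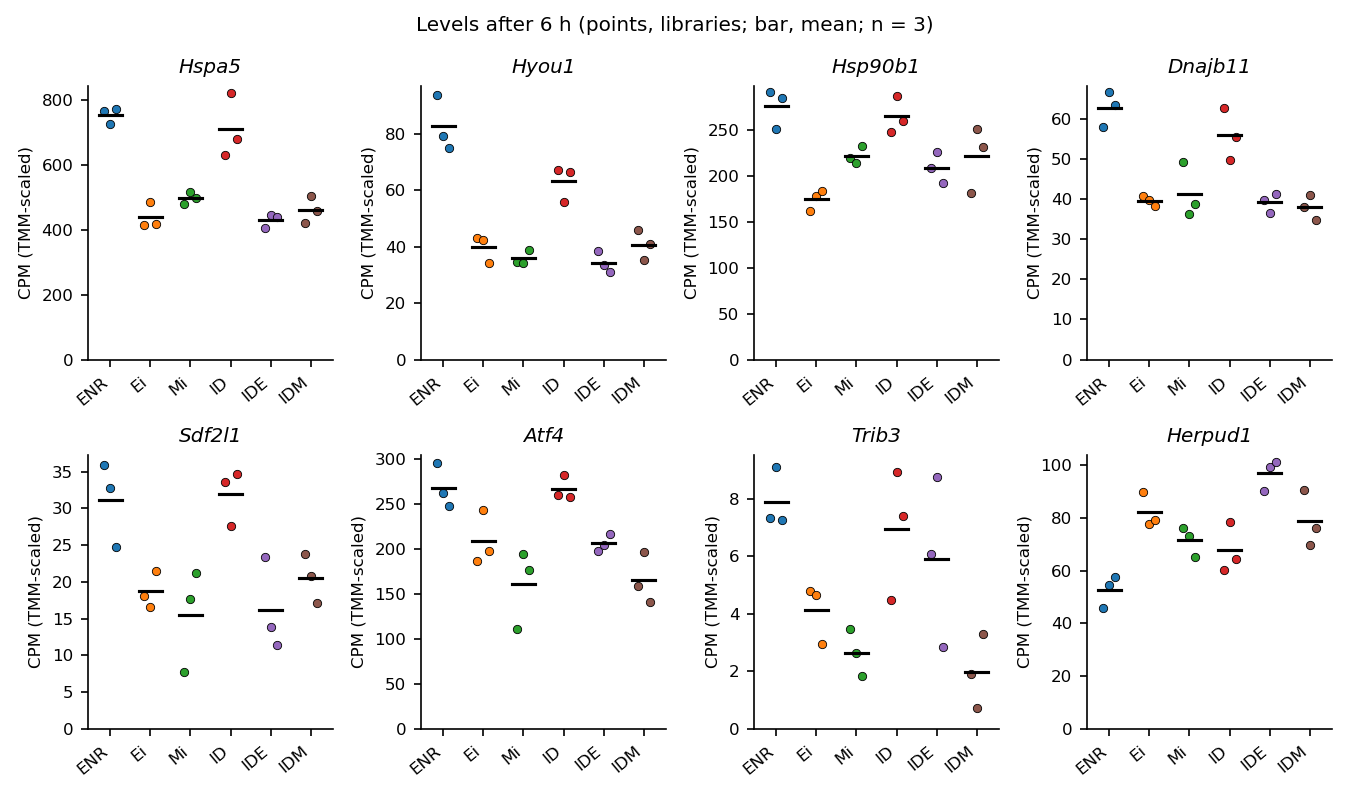
Levels of 8 members after 6 h (y axes, TMM-scaled CPM from 0) in the 6 treatments; points are libraries and bars are means of 3. Hspa5 and Hyou1 lie lower in Ei and Mi than in ENR and lower in IDE and IDM than in ID, while Herpud1 lies higher in Ei than in ENR.

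Atf4 fell at 6 h with the Mek inhibitor, and with the EGFR inhibitor its change did not pass; Mi and Ei were not compared directly at 6 h. Atf4, the transcription factor translated when eIF2-alpha is phosphorylated, had 295, 262 and 248 CPM in ENR and 111, 194 and 177 CPM in Mi. All Mi libraries were lower, with a log2 change of -0.74 (SE 0.16, adjusted p = 0.000588). In ID it had 259, 282 and 257 CPM and in IDM 159, 197 and 141 CPM, again without overlap, a log2 change of -0.69 (SE 0.16, adjusted p = 0.00148). Both calls held in all 6 fits. With the EGFR inhibitor the log2 changes were -0.35 (SE 0.16, adjusted p = 0.0887) against ENR and -0.37 (SE 0.16, adjusted p = 0.0834) against ID, short of the threshold. Trib3, a pseudokinase induced by Atf4, was counted 9, 10 and 10 times in ENR and 4, 3 and 2 times in Mi, and 2, 13 and 10 times in ID and 2, 1 and 5 times in IDM. Its calls (adjusted p = 0.0356 and 0.0155) rest on those few reads and ended in 6 of 6 and in 2 of 6 fits.

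Of 21 further genes of stress transcription and the integrated stress response, 19 were tested at 6 h. Against ENR, 1 rose and 10 fell in Ei and 2 rose and 9 fell in Mi, and against ID 1 rose and 7 fell in IDE and 0 rose and 12 fell in IDM. Of all genes 13.3% rose and 14.9% fell in Ei, and 10.2% and 12.9% in Mi. In IDE these shares were 9.97% and 12.5%, and in IDM 9.71% and 10.9%. Slc7a11, the cystine importer, had 137 ± 45.4 CPM (SD, n = 3) in ENR and 56.7 ± 6.27 in Ei, a log2 change of -1.26 (SE 0.20, adjusted p = 1.04e-05). The serine and glycine synthesis enzymes Phgdh (-1.15) and Shmt2 (-1.33) fell as well, while Nupr1, a small stress-induced chromatin protein, rose by 1.78. Ero1l, the oxidase that recharges disulfide isomerases, had 247.5 ± 78.03 CPM in ENR and 83.4 ± 8.82 in Ei, a log2 change of -1.56 (SE 0.26, adjusted p = 1.41e-05).

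A few members rose at 6 h. Herpud1, which links the degradation complex to ubiquitin-dependent disposal, had 45.6, 54.7 and 57.5 CPM in ENR and 89.99, 77.6 and 79.2 CPM in Ei, a log2 change of 0.63 (SE 0.17, adjusted p = 0.00418). Every Ei library was higher than every ENR library. Sec11c, a catalytic subunit of signal peptidase, had 92.9, 66.5 and 62.6 CPM in ENR and 122, 115 and 96.8 CPM in Ei, a log2 change of 0.59 (SE 0.16, adjusted p = 0.00574), whose call ended without ENR replicate 3 (adjusted p = 0.0561). Sel1l, the adaptor of the degradation complex, rose in Mi (0.48) and in IDE (0.53), each call ending in 3 of 6 fits. Markers of Paneth cells were already higher at 6 h: 10 of the 10 tested rose in Ei, and their summed level was 2622 to 3543 CPM in ENR and 5169 to 6991 CPM in Ei. Those of dividing cells summed to 1948 to 2024 CPM in ENR and 1377 to 1570 CPM in Ei. Their part in the changes of the members was not tested. Of the 10 members with an element in the promoter 1 rose and 4 fell in Ei against ENR, and of 17 without one 0 rose and 2 fell. In Mi against ENR 0 rose and 2 fell with an element and 1 rose and 4 fell without one. In IDE against ID 1 rose and 2 fell in either class, and in IDM against ID 0 rose and 2 fell with an element and 2 rose and 2 fell without one. Atf6, Ern2, Hyou1, Manf, Sec11c, Sec61a1 and Ssr2 had no matched promoter and are in neither class. Among these, Hyou1 and Manf fell in Ei and in Mi and Sec11c rose in Ei, and Hyou1 and Sec61a1 fell in IDE and in IDM.

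After 96 h of EGFR or Mek inhibition the organoids were rich in Paneth cell RNA, and none of the lumenal chaperones stood lower than in ENR by the test. The 11 Paneth markers summed to 3784 to 4456 CPM in ENR, 54000 to 74500 CPM in Ei and 37900 to 41900 CPM in Mi, with all 10 tested markers higher in both. Goblet and enteroendocrine markers also summed higher in Ei (5522 to 7196 and 2690 to 3276 CPM) than in ENR (1697 to 2025 and 299.5 to 414.8 CPM), and tuft markers summed to 167.3 to 248.8 CPM in Ei and 132.8 to 176.2 CPM in Mi against 32.34 to 41.26 CPM in ENR. In Ei 11 of 33 members rose and 1 fell, against 9.45% and 8.92% of all 8135 genes, with a median of 0.30 against 0.02 over all genes. In Mi 8 rose and 1 fell, against 11.5% and 11.8%, with a median of 0.21 against 0.02. The part of cell composition in these counts was not tested. Hspa5 had 491 to 551 CPM in ENR and 516 to 738 CPM in Ei, and its log2 change of 0.32 (SE 0.18, adjusted p = 0.229) did not pass.

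Of the 9 translocon, TRAP and signal peptidase members 4 rose and 1 fell in Ei and 2 rose and 1 fell in Mi, and of the 4 members of ER-associated degradation 2 rose and 0 fell in each. Sec11c had 69.01, 70.3 and 45.0 CPM in ENR, 178, 198 and 310.2 CPM in Ei and 162, 142 and 131 CPM in Mi. All treated libraries lay above ENR, with log2 changes of 1.87 (SE 0.21, adjusted p = 4.64e-08) in Ei and 1.25 (SE 0.20, adjusted p = 1.47e-05) in Mi. Herpud1 had 54.8, 54.8 and 55.4 CPM in ENR, 153, 105 and 165 CPM in Ei and 168, 125 and 121 CPM in Mi. Again no treated library overlapped ENR, and the log2 changes were 1.39 (SE 0.23, adjusted p = 3.32e-05) and 1.33 (SE 0.20, adjusted p = 1.05e-05). Sec61a1 had 102, 95.6 and 116 CPM in ENR and 233, 198 and 202 CPM in Ei, a log2 change of 1.03 (SE 0.18, adjusted p = 9.34e-05). In Mi it had 159, 147 and 151 CPM, and that call (0.54) ended in 4 of 6 fits. Sel1l had 61.2, 51.3 and 87.1 CPM in ENR and 121, 137 and 113 CPM in Mi, a log2 change of 0.88 (SE 0.20, adjusted p = 0.00158). In Ei it had 84.61 to 161.1 CPM and was called higher too. There the groups overlapped, and the call did not hold in every fit that left out 1 library.

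Among the chaperones and co-chaperones Dnajc3 rose in both groups, and Dnajb9 and Manf in Ei, the call of Manf (0.67) ending in 3 of 6 fits. Dnajc3, a lumenal J-domain protein that also restrains PERK, had 81.1, 73.8 and 71.0 CPM in ENR and 141, 205 and 160 CPM in Ei, a log2 change of 1.11 (SE 0.21, adjusted p = 0.000264). Mi libraries stood between 109.7 and 148.9 CPM, also above all ENR libraries, a log2 change of 0.80 (SE 0.19, adjusted p = 0.00234). Dnajb9, the J-domain protein that holds Ern1 inactive with Hspa5, had 16.4, 12.7 and 15.6 CPM in ENR and 44.6, 18.6 and 42.3 CPM in Ei. Its log2 change of 1.36 (SE 0.33, adjusted p = 0.00363) lost the call without Ei replicate 1 (adjusted p = 0.178). Ern2 had 9.96, 6.33 and 4.04 CPM in ENR and 27.4, 31.0 and 32.9 CPM in Ei, from 5 to 16 counts per Ei library, a log2 change of 2.13 (SE 0.48, adjusted p = 0.00177). In Mi it had 14.5, 37.1 and 15.8 CPM, and that call (1.69, adjusted p = 0.00319) ended without Mi replicate 2 (0.0824).

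The member that fell was Ssr1 in Ei (-0.59, not called without ENR replicate 3 or Ei replicate 3) and Sec61g in Mi (-0.61, not called in 3 of 6 fits). The count in Ei was 7 without ENR replicate 2, Ei replicate 2 or Ei replicate 3, 7 with no filter on low counts and 6 when thinned to 158135 counts per library, and the count in Mi was 5 without Mi replicate 3 and 4 when thinned. With DESeq2 size factors Mi had 7 members higher and 2 lower. Of 113 tested genes elsewhere in the pathway 23 rose and 8 fell in Ei and 18 rose and 14 fell in Mi. Of all genes 9.45% rose and 8.92% fell in Ei, and 11.5% and 11.8% in Mi. Bhlha15 (Mist1), which builds secretory capacity in gland cells, had 8.48 ± 3.93 CPM in ENR and 45.5 ± 23.2 in Ei, a log2 change of 2.37 (SE 0.39, adjusted p = 3.88e-05). Spdef, a goblet and Paneth maturation factor that is also in the list of goblet markers, rose by 2.31 there. Eif2ak3, the PERK kinase, rose by 1.51 in Ei, and Ero1l fell by 2.82 in Ei and by 3.33 in Mi.

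No member was called between Ei and Mi at 96 h. By edgeR's test 0 of 33 were higher and 0 lower in Mi than in Ei, as were 0.086% and 0.996% of all genes, while 5 members had an unadjusted p under 0.05 and DESeq2 called 1. The median log2 change of the members was -0.22, against -0.002 over all genes, with 25 members below 0 and 8 above. The log2 change of Ern2 in that comparison was -0.44 (SE 0.44), which leaves a difference of that size undetectable at this depth.

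After 96 h of Wnt and Notch inhibition goblet markers summed to 25000 to 43530 CPM against 1697 to 2025 CPM in ENR. Members were called in both directions there, each at a smaller share than among all genes. Enterocyte markers summed to 11320 to 14980 CPM in ID against 1480 to 1600 CPM in ENR, with 9 of 10 higher, and the part of either cell type was not tested. In ID 4 of 33 rose and 3 fell, where 19.7% of all genes rose and 18.3% fell, and the medians were -0.07 for the members and -0.02 for all genes. Ern2 had 39.5, 13.1 and 30.1 CPM in ID, from 4 to 22 counts, all above ENR, a log2 change of 2.12 (SE 0.43, adjusted p = 0.000232). Dnajb9 had 50.2, 39.4 and 45.2 CPM, also above every ENR library, a log2 change of 1.60 (SE 0.29, adjusted p = 6.38e-05). The disulfide isomerases split. P4hb, the main protein disulfide isomerase, had 651, 705 and 682 CPM in ENR and 1136, 1117 and 1307 CPM in ID, a log2 change of 0.81 (SE 0.15, adjusted p = 0.000115). Pdia6, which attenuates IRE1 signalling, had 450, 438 and 476 CPM in ENR and 224, 184 and 186 CPM in ID, a log2 change of -1.19 (SE 0.17, adjusted p = 1.63e-06). Neither gene's groups overlapped.

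Both small translocon subunits fell in ID. Sec61b had 280, 224 and 268 CPM in ENR and 176, 145 and 166 CPM in ID, a log2 change of -0.66 (SE 0.18, adjusted p = 0.0048), and Sec61g fell by 0.54 in a call that ended in 3 of 6 fits. Syvn1, the ubiquitin ligase of the degradation complex, had a log2 change of 0.81 that passed but lost its call in 4 of 6 fits. Thinning left 3 members called in place of 7. Elsewhere in the pathway 22 of 113 genes rose and 17 fell, where 19.7% of all genes rose and 18.3% fell. Among those that rose was Agr2, the isomerase that folds mucins, which is also in the list of goblet markers. Agr2 had 115 ± 4.52 CPM in ENR and 399 ± 85.4 in ID, a log2 change of 1.80 (SE 0.19, adjusted p = 8.17e-09). Rrbp1, the ribosome receptor of rough ER, rose by 1.26, and the glycosyltransferase subunit Stt3b fell by 0.89. Treatment and library set cannot be told apart in these values.

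In IDE and IDM organoids, where enteroendocrine markers were highest, the sensor Atf6 also stood highest. Enteroendocrine markers summed to 5612 to 8053 CPM in IDE and 10970 to 11960 CPM in IDM, against 2580 to 4212 CPM in ID, and goblet markers to 11120 to 17020 CPM in IDE and 8618 to 9206 CPM in IDM. Tuft markers summed to 36.13 to 96.91 CPM in ID, 157.1 to 215.9 CPM in IDE and 382.1 to 448.5 CPM in IDM, with 4 and 6 of the 6 tested higher than in ID. Enterocyte markers summed to 5354 to 7715 CPM in IDE and 5471 to 6236 CPM in IDM. Markers of dividing cells summed to 551.7 to 922.5 CPM in ID, 383.7 to 547 CPM in IDE and 326.2 to 408.8 CPM in IDM. Atf6, the membrane-bound factor that induces chaperones once cleaved, had 39.8, 55.5 and 43.3 CPM in ENR and 80.8, 42.7 and 60.3 CPM in ID. It had 138, 191 and 178 CPM in IDE and 316, 267 and 254 CPM in IDM. All IDE libraries lay above all ID libraries, and all IDM libraries above all IDE libraries. Against ID the log2 change was 1.42 (SE 0.23, adjusted p = 2.07e-05) in IDE and 2.13 (SE 0.23, adjusted p = 4.93e-08) in IDM, and both held in all 6 fits. Its difference between IDM and IDE, 0.71 (SE 0.20, adjusted p = 0.041), lost its call in all 6 fits. Against ENR the log2 changes were 1.88 (adjusted p = 6.8e-09) and 2.58 (adjusted p = 2.86e-11). Atf6 was also called higher in Mi, with 63.33 to 77.57 CPM against 39.84 to 55.55 CPM in ENR. The Mi call of Atf6 did not hold in every fit that left out 1 library. Its relation to the enteroendocrine, tuft and other markers was not tested.

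In IDE against ID 10 of 33 members rose and 1 fell, against 10.8% and 13.1% of all genes, with medians of 0.37 and -0.03. Leaving out ID replicate 1 left 7 called, thinning left 5, and with library totals 8 rose and 2 fell. Sec61b had 344, 412 and 368 CPM in IDE, above every ID library, a log2 change of 1.20 (SE 0.19, adjusted p = 1.28e-05). Sec11c stood at 66.4, 68.97 and 77.2 CPM in ID and 131, 143 and 124 CPM in IDE, a log2 change of 0.91 (SE 0.23, adjusted p = 0.00344). Pdia6 had 242, 358 and 379 CPM in IDE, higher than in ID with a log2 change of 0.71 (SE 0.17, adjusted p = 0.00307), and Manf had 196, 115 and 169 CPM in ID and 216, 318 and 291 CPM in IDE, a log2 change of 0.76 (SE 0.20, adjusted p = 0.00513). For each of these 4 genes all IDE libraries lay above all ID libraries. Herpud1 rose by 0.95, a call that ended without ID replicate 1 (adjusted p = 0.0536).

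Atf4 and Trib3 rose in IDE. Without Wnt and Notch inhibition Atf4 was also called higher, with 329.4 to 409 CPM in Ei against 230.8 to 268.9 CPM in ENR. The Ei call of Atf4 did not hold in every fit that left out 1 library. Atf4 had 237, 243 and 247 CPM in ID and 367, 382 and 592 CPM in IDE, a log2 change of 0.87 (SE 0.18, adjusted p = 0.000465). Trib3 had 12.6, 9.85 and 11.3 CPM in ID and 34.1, 30.7 and 61.8 CPM in IDE, a log2 change of 1.77 (SE 0.41, adjusted p = 0.0019). No IDE library overlapped ID for either gene. Of the 21 further stress and integrated stress response genes 1 rose and 5 fell, with a median log2 change of -0.38: Phgdh had 41.0 ± 10.5 CPM in ID and 9.92 ± 2.18 in IDE, a log2 change of -2.03 (SE 0.36, adjusted p = 9.79e-05), and the amino acid transporter chain Slc3a2 rose by 0.66. Of the 11 tested oligosaccharyltransferase subunits, which add N-glycans, 5 rose and 0 fell in IDE, among them Ostc (0.95) and Dad1 (0.80). Of all genes 10.8% rose and 13.1% fell in IDE against ID.

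In IDM against ID 4 members rose and 3 fell, against 5.37% and 8.15% of all genes, with medians of 0.16 and 0.00. Herpud1 had 46.7, 75.5 and 75.3 CPM in ID and 142, 166 and 194 CPM in IDM, without overlap, a log2 change of 1.37 (SE 0.25, adjusted p = 0.000188). Sec11c (0.87) rose except without ID replicate 1 (adjusted p = 0.0696), and Sec61b (0.75) except without IDM replicate 2 (adjusted p = 0.114). Dnajb9 (-1.21), Edem1 (-0.73), a lectin of degradation, and Ddit3 lost their calls in 4 or 5 of 6 fits. Ddit3 (CHOP), the death-promoting target of Atf4, was counted 14, 5 and 13 times in ID, 13, 32 and 20 times in IDE and 1, 2 and 2 times in IDM. Its difference between IDM and IDE (log2 change -2.46, SE 0.58, adjusted p = 0.0115) rests on those 5 reads and ended without IDM replicate 2 (0.0849). The count in IDM against ID was 3 without ID replicate 1 or IDM replicate 2, 4 without ID replicate 3 or IDM replicate 1, and 3 when thinned. With library totals 5 rose and 1 fell, and with DESeq2 size factors 5 and 2.

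Atf6 (higher) and Ddit3 (lower) were the members called between IDM and IDE, 1 and 1 of 33, where 2.13% of all genes rose and 2.57% fell, and the count was 0 without IDM replicate 2 and 1 without any of the other 5 libraries. Against ENR, across library sets, IDE had 15 members higher and 2 lower of 33, with 25.4% and 24.7% of all genes, and a median of 0.43 against -0.02. Library totals gave 10 and 5 there, and thinning left 7 called. IDM had 5 higher and 2 lower, with 19.1% and 18.6% of all genes, and medians of 0.09 and -0.02, and 6 and 1 with DESeq2 size factors. Besides Atf6, Sec11c and Herpud1 rose in both (Sec11c 1.12 and 1.09, Herpud1 1.18 and 1.60). Pdia6 stood lower than ENR in both, by 0.48 in IDE, where the call ended without IDE replicate 1 (adjusted p = 0.128), and by 0.66 in IDM. P4hb had 1094, 1149 and 1192 CPM in IDE, above ENR as in ID, a log2 change of 0.75 (SE 0.15, adjusted p = 0.000157). Xbp1, the factor that Ern1 and Ern2 splice, did not pass in any comparison, with 110.4 to 157.9 CPM in ENR at 96 h, 135.6 to 223.3 in ID and 128.8 to 199.1 in IDE, and counts of 3' ends do not show its splicing.

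**Figure D4:**
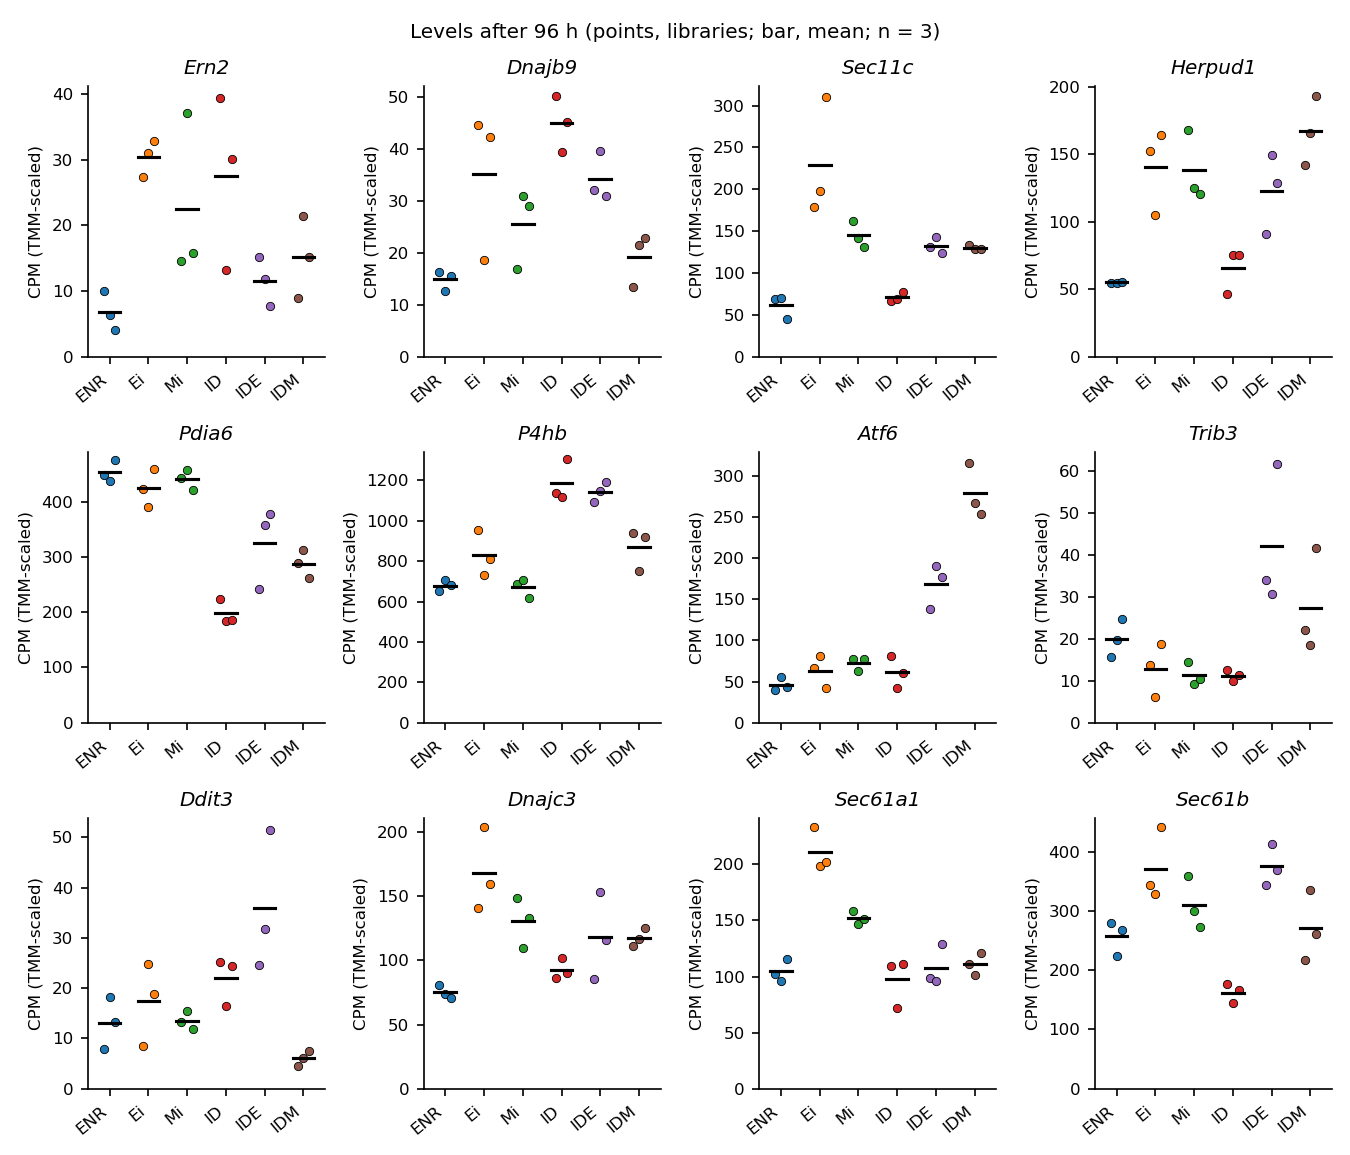
Levels of 12 members after 96 h (y axes, TMM-scaled CPM from 0) in the 6 treatments; points are libraries and bars are means of 3. Sec11c and Herpud1 lie above ENR in Ei, Mi, IDE and IDM, Ern2 lies highest in Ei and ID, Pdia6 lowest in ID, and Atf6 rises from ID through IDE to IDM.

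Whether an inhibitor acted differently with Wnt and Notch already inhibited was tested as an interaction, which draws on both library sets. For the EGFR inhibitor 2 of 33 members had a higher and 4 a lower response under Wnt and Notch inhibition, against 6.28% and 7.84% of all genes. For the Mek inhibitor 2 were higher and 2 lower, against 2.35% and 3.45%. Ern2 differed most: its log2 change was 2.13 for Ei against ENR and -1.29 for IDE against ID, a difference of -3.42 (SE 0.66, adjusted p = 0.000476) that held in all 12 fits. Trib3 went the other way, with an EGFR inhibitor difference of 2.345 (SE 0.61, adjusted p = 0.00841) that also held in all 12. For the Mek inhibitor Atf6 differed by 1.47 (SE 0.32, adjusted p = 0.00329) in all 12 fits. Dnajb9 differed by -1.74 and -1.97 for the EGFR and Mek inhibitors, calls that ended without Ei replicate 1 (adjusted p = 0.125) and without IDM replicate 1 (0.0505). All 10 tested Paneth and all 10 tested goblet markers were called lower in the EGFR inhibitor interaction (medians -4.28 and -2.83). In the Mek inhibitor interaction 9 and 8 of them were called lower and 0 higher (medians -3.82 and -2.06). Of 8 tested enteroendocrine markers 5 and 1 were called lower and 0 higher. The part of these cell types in the differences of the members was not tested. With library totals the splits of the members were 1 and 5, and 1 and 2. The Mek count was 2 without Mi replicate 2 or ID replicate 1 and 1 without IDM replicate 1, and thinning left 1 and 0 members called.

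Single members differed between sorted cell types, while the share of members called lay near or below that of all genes for Dclk1+ cells. Tuft markers summed to 6643 to 9417 CPM in Dclk1+ cells against 18.61 to 20.58 CPM in control organoids, while the blood cell gene Ptprc stood at 25.7 to 83.2 CPM in Dclk1+ cells. Stem markers summed to 870 to 1257 CPM in Lgr5+ cells of ENR organoids and 552.5 to 553.7 CPM in control organoids, although Lgr5 itself overlapped (32.6 to 58.3 against 40.7 to 48.5 CPM). Dclk1+ ENR replicate 2 also carried Paneth and goblet RNA (4255 and 2480 CPM, against 200.5 and 229.1 CPM in replicate 1), and its part in the results was not tested. Dclk1+ cells came from another mouse line than Lgr5+ cells, so between them cell type and line cannot be told apart. Control organoids were deposited in a table of their own. In Lgr5+ cells against them 4 of 34 members were higher and 4 lower, with 5.54% and 6.46% of all 10325 genes and medians of -0.16 and -0.10. The count was 5 without organoid replicate 1 and 3 without replicate 2, and the split was 1 and 9 with library totals, under which the median of all genes was -0.547. In Dclk1+ cells 3 were higher and 6 lower, with 13.2% and 17.1% and medians of -0.34 and -0.14, and 2 and 7 with library totals.

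Sec11c was higher in Dclk1+ cells than in organoids and in Lgr5+ cells. It had 53.7 and 31.3 CPM in organoids, 89.5 and 72.2 CPM in Lgr5-GFP cells, 101 and 74.5 CPM in Lgr5-DTR cells, and 479 and 402 CPM in Dclk1+ cells, all in ENR. Dclk1+ cells of EGFR-inhibited organoids had 494 and 551 CPM. The log2 change was 3.37 against organoids (SE 0.33, adjusted p = 9.28e-07) and 2.39 against Lgr5+ cells (SE 0.25, adjusted p = 1.75e-06), and both held in every fit that left out a library. P4hb and Calr were lower in sorted cells than in organoids. Control organoids also held more RNA of differentiated cells. Their enterocyte markers summed to 5132 to 6324 CPM against 206.7 to 403.3 CPM in the sorted ENR libraries, their Paneth markers to 8027 to 9371 CPM against 200.5 to 4255 CPM, and their goblet markers to 2940 to 5336 CPM against 229.1 to 2480 CPM. The part of these cells in the difference was not tested. P4hb had 1343 and 1358 CPM in organoids, 411 to 508 CPM in Lgr5+ cells and 300.1 and 451 CPM in Dclk1+ cells. Its log2 changes against organoids were -1.54 (SE 0.21, adjusted p = 0.000138) and -1.84 (SE 0.26, adjusted p = 6.18e-05). Calr had 2001 and 2003 CPM in organoids, 757 to 954 CPM in Lgr5+ cells and 588 and 873 CPM in Dclk1+ cells, with log2 changes of -1.22 (SE 0.21, adjusted p = 0.00097) and -1.45 (SE 0.26, adjusted p = 0.00049). Sec61g, the small translocon subunit, had 527.5 and 249.5 CPM in organoids and 1220 to 2653 CPM in Lgr5+ cells, a log2 change of 2.30 (SE 0.34, adjusted p = 0.000287).

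Between the sorted types 4 of 34 members were higher and 5 lower in Dclk1+ than in Lgr5+ cells, with 18.9% and 19.4% of all genes and medians of -0.16 and -0.06. Pdia6 had 225 to 299 CPM in Lgr5+ cells and 84.6 and 71.2 CPM in Dclk1+ cells, a log2 change of -1.76 (SE 0.34, adjusted p = 0.000639). Manf, a lumenal neurotrophic factor that binds Hspa5, had 89.8 to 127 CPM and 28.6 and 38.1 CPM, a log2 change of -1.66 (SE 0.39, adjusted p = 0.00332). Herpud1 had 34.2 and 18.4 CPM in Lgr5-GFP cells, 14.2 and 36.1 CPM in Lgr5-DTR cells and 72.3 and 69.6 CPM in Dclk1+ cells, a log2 change of 1.45 (SE 0.37, adjusted p = 0.00575). None of these 3 genes' groups overlapped. Among the other ER genes Erp44, which retains unassembled secretory proteins, had 768 ± 208 CPM (n = 4) in Lgr5+ and 69.7 ± 30.6 (n = 2) in Dclk1+ cells, and Ero1lb, the second ER oxidase, 0.860 ± 0.758 and 77.1 ± 4.79, with log2 changes of -3.45 (adjusted p = 9.3e-06) and 6.39 (adjusted p = 1.92e-07).

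EGFR inhibition in sorted Lgr5+ cells moved 2 of 34 members up and 4 down, with 2.88% and 2.06% of all genes and medians of -0.32 and 0.03, but no call held in all 8 fits that left out a library, where 0 to 3 members remained called. The count was 0 without Lgr5-GFP ENR replicate 2 or Lgr5-DTR Ei replicate 1, 1 without Lgr5-GFP Ei replicate 1 or 2, Lgr5-DTR ENR replicate 1 or Lgr5-DTR Ei replicate 2, 2 without Lgr5-DTR ENR replicate 2 and 3 without Lgr5-GFP ENR replicate 1. Library totals gave 2 higher and 1 lower, and thinning 2 called. Herpud1 had 85.1 and 66.3 CPM in Lgr5-GFP and 64.5 and 48.0 CPM in Lgr5-DTR cells under EGFR inhibition, above all 4 ENR libraries, a log2 change of 1.34 (SE 0.32, adjusted p = 0.0182) whose call ended in 4 of 8 fits. Hsp90b1 (-0.79), Sec61b (-0.99), Sec61g (-0.89), Ern2 (-2.61, from 0 to 4 counts per treated library) and Ddit3 (1.76) made up the rest. Goblet markers summed to 1008 to 1984 CPM in the Lgr5+ ENR libraries and 354.4 to 651.4 CPM under EGFR inhibition, and those of dividing cells to 1473 to 1923 and 673.8 to 1050 CPM. Paneth markers summed to 1211 to 2247 CPM in Lgr5-GFP ENR and 8178 to 8876 CPM in Lgr5-GFP Ei cells, and to 2783 to 3773 and 2709 to 3277 CPM in Lgr5-DTR cells. The part of these markers was not tested. In Dclk1+ cells 0 members rose and 1 fell, with 1.1% and 2.24% of all genes, and 8 had an unadjusted p under 0.05. That member, Ssr1, had 105 and 131 CPM in ENR and 49.5 and 48.8 CPM in Ei (log2 change -1.27, SE 0.34, adjusted p = 0.0472), its call ended in 3 of 4 fits, and the count was 2 without Dclk1+ ENR replicate 1 and 0 without Dclk1+ Ei replicate 1.

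**Figure D5:**
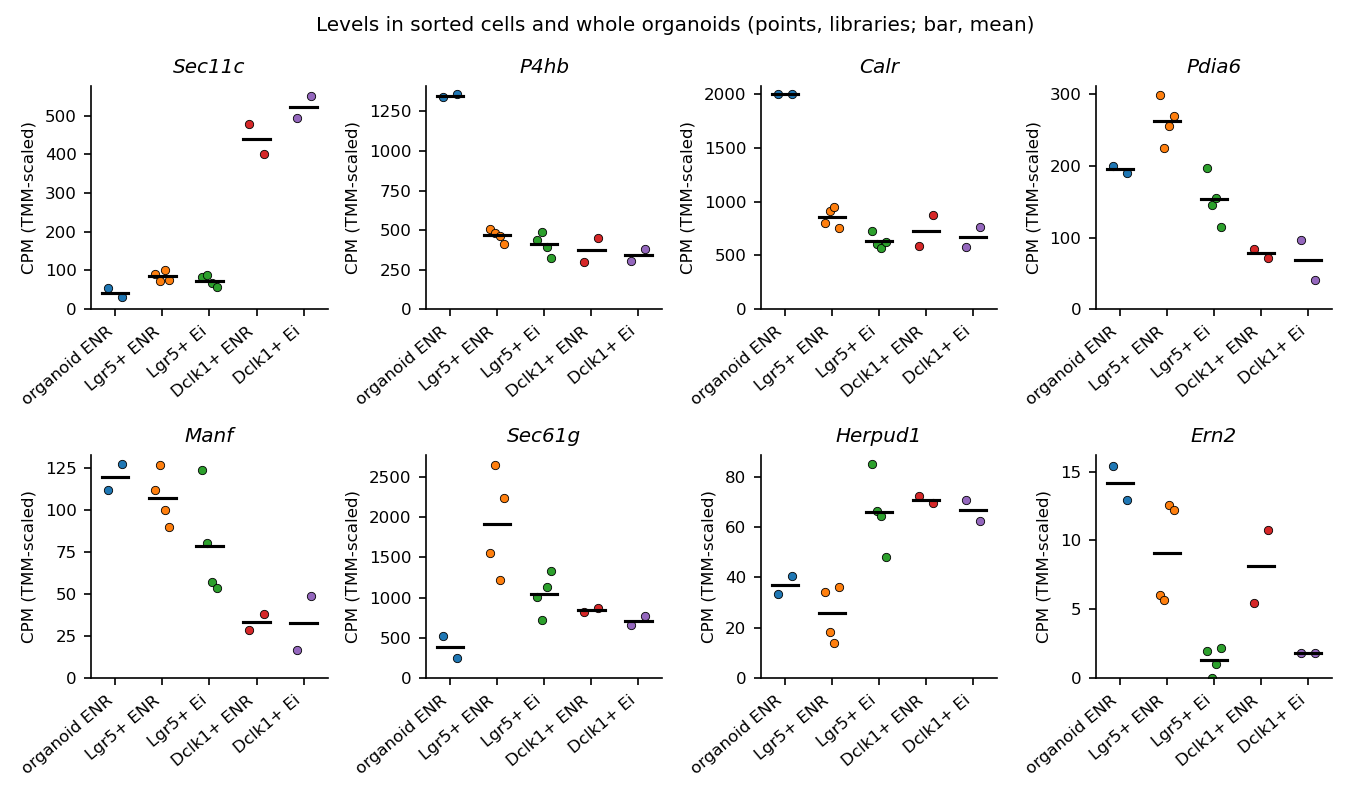
Levels of 8 members in control organoids and sorted cells (y axes, TMM-scaled CPM from 0); points are libraries, bars are means, and both Lgr5 lines are drawn together. Sec11c is highest in Dclk1+ cells with and without EGFR inhibition, P4hb and Calr are highest in whole organoids, and Pdia6 and Manf are lowest in Dclk1+ cells.

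Across the 19 comparisons between groups, Herpud1 and Sec11c were each called higher in 10 and lower in 0, and Atf6 higher in 6 and lower in 0. Hspa5 and Hyou1 were called lower in 4 and higher in 0, and Ssr1 lower in 6. In single comparisons 0.0746% to 25.4% of all genes were called higher and 0.149% to 24.7% lower. How often other genes were called across the 19 was not counted, so these counts have no background to be read against. These comparisons share reference libraries, so they are not independent counts. Creld2, Pdia4, Ssr2, Ssr3, Ern1 and Xbp1 were called in none. In the mm10 gene annotation 15 of the 35 members overlap another gene, 13 of them one on the other strand. Whether counting used strand is not given in the sources used here. Ddit3 overlaps Mars on the other strand and a second gene model of its name on its own strand. Manf overlaps Dcaf1 on the other strand and Rbm15b on its own. Both are uncertain, and an overlap on the same strand bears on the counts whether or not strand was used. Herpud1 and Sec11c each overlap 1 gene on the other strand. So do Pdia3 (Catsper2), Pdia6 (Atp6v1c2), Spcs1 (Glt8d1) and Syvn1 (Mrpl49).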

How the data were processed

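Bulk CEL-seq libraries of whole organoids and sorted cells were analysed; single-cell libraries were not used here. The authors deposited raw read counts per gene, and the submitters' processing notes name BWA 0.6.2-r126 and build mm10; the counter and its use of strand are not given in the sources used here. Genes under edgeR's filterByExpr limits were left out, the rest were scaled by TMM and tested with edgeR 4.0.16 (quasi-likelihood, R 4.3.3), with Benjamini-Hochberg adjustment over all genes of a comparison and a threshold of 0.05. Each set (6 h, 96 h, sorted) was fitted with all its groups, and times were not compared, since time and library set coincide. The members and lists were chosen with earlier results of these data known. Every tested member could be named, by role, and of each list of other ER genes at most 4 per comparison, those with the smallest adjusted p. Alternatives were DESeq2 1.42.0, other scalings, no filter, thinning, a replicate block and leaving out each library. The sorted cells and their control organoids came in separate tables of counts, which were joined with missing genes as 0. Scripts were tested on simulated data. Promoters came from RefSeq (GRCm38.p6). Depth limits low genes: a gene with under about 10 counts per library has wide error.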

Additional observations from a re-analysis of the deposited data

Results flagged for a closer look

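Between organoids with and without Wnt and Notch inhibition, 10 effects of an inhibitor after 96 h differed by an interaction term, given as the log2 change under Wnt and Notch inhibition minus that without it (edgeR's quasi-likelihood test, 3 libraries per group). For the EGFR inhibitor, Ern2 differed by -3.42 (SE 0.661, adjusted p = 0.000476), Dnajb9 by -1.738 (SE 0.443, adjusted p = 0.00707), Sec61a1 by -0.9513 (SE 0.27, adjusted p = 0.0159) and Sec11c by -0.9609 (SE 0.31, adjusted p = 0.0348). Pdia6 differed by 0.8063 (SE 0.242, adjusted p = 0.0223) and Trib3 by 2.345 (SE 0.611, adjusted p = 0.00841). For the Mek inhibitor, Ern2 differed by -2.576 (SE 0.662, adjusted p = 0.0157), Dnajb9 by -1.966 (SE 0.49, adjusted p = 0.0122), Atf6 by 1.467 (SE 0.317, adjusted p = 0.00329) and Trib3 by 2.022 (SE 0.62, adjusted p = 0.0476). The differences of Ern2 and Trib3 for the EGFR inhibitor and of Atf6 for the Mek inhibitor held in all 12 fits that left out a library. Those of Sec61a1 and Sec11c ended in 4 and 8 of 12, that of Pdia6 without ENR replicate 3 or ID replicate 2, and those of Ern2 and Trib3 for the Mek inhibitor in 4 and 9 of 12. In the same interactions 10 (EGFR) and 9 (Mek) of 10 tested Paneth markers were called lower and 0 higher. For goblet markers these counts were 10 and 8 of 10 lower and 0 higher. Their part in the differences of the members was not tested.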

How the results depend on the processing

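Of the values for single genes under an alternative, none changed sign past the threshold, 442 lost a call and 117 gained one. Thinned to the smallest library, the members called were 5 in Ei against ENR, 2 in IDE against ID and 4 in IDM against ID at 6 h. At 96 h they were 6 in Ei, 4 in Mi, 3 in ID and 7 in IDE against ENR, 5 in IDE and 3 in IDM against ID, 1 in Mi against Ei, 0 in IDM against IDE, and 1 and 0 for the EGFR and Mek interactions. In sorted cells under EGFR inhibition they were 2 (Lgr5+) and 0 (Dclk1+). With no filter they were 5 in IDE and 5 in IDM against ID at 6 h, 7 in Ei against ENR and 1 in IDM against IDE at 96 h, and 2 in Dclk1+ cells. DESeq2 gave 5 in IDM against ID at 6 h and 1 in Mi against Ei at 96 h. With only the compared groups in the fit they were 4 in IDM against ID at 6 h, 1 in IDM against IDE and 0 in Dclk1+ cells. Library totals gave 3 in Lgr5+ and 0 in Dclk1+ cells, and DESeq2 size factors 2 in Dclk1+ cells. The ratio of the members' highest to lowest share was 1.513 at 96 h and 1.86 in the sorted set without the most abundant member.

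Leaving out 1 library gave 4 to 6 members in Mi against ENR, 4 to 5 in IDE against ID and 4 to 8 in IDM against ID at 6 h. At 96 h the ranges were 7 to 9 in Ei and 5 to 7 in Mi against ENR, 7 to 11 in IDE and 3 to 7 in IDM against ID, 0 to 1 in IDM against IDE, and 1 to 5 for the Mek interaction. In the sorted set they were 0 to 3 in Lgr5+ and 0 to 2 in Dclk1+ cells under EGFR inhibition and 3 to 8 in Lgr5+ cells against organoids. The cause of these changes was not tested, beyond the fewer reads or libraries that thinning and leaving out entail.

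Replicate numbers did not pair the libraries at 6 h or 96 h, where every correlation was over 0.1 in 0 of 15 pairs of groups each. In the sorted set this held in 2 of 21 pairs, but 14 of 14 libraries correlated best with their own number. With 2 libraries per group the same-number correlations of a pair are equal, so whether the sorted libraries are paired was not settled. A replicate block gave 0 members in Dclk1+ cells under EGFR inhibition and kept the other 20 counts within 1.5 times. Library totals moved the median log2 change of all genes by over 0.1 in several comparisons, most in Lgr5+ cells against organoids, to -0.547. Leaving out genes above 5% of a library applied to the sorted set alone. Depth limits Ern2, Trib3 and Ddit3, with a few counts in some libraries.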
